A study of Mus musculus with 6 samples.

Results

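The 9 genes described here encode chaperones of the endoplasmic reticulum (ER) and regulators of the unfolded protein response. They were taken by name (Hspa5, Hsp90b1, Calr, Pdia3, Pdia4, Herpud1, Atf4, Ddit3 and Xbp1), and each was matched by 1 probe set with a single annotated symbol, so the set holds 9 of the 8251 genes named by the 12422 probe sets of the array. The samples were mIMCD3 cells, a mouse line of the inner medullary collecting duct, given aldosterone or vehicle for 1 h. Aldosterone is the adrenal steroid that raises sodium reabsorption in the distal nephron, and its early targets in these cells are the question of the series. The experiment was done 3 times, each time with 1 aldosterone and 1 vehicle array. The hormone's dose is not given in the sources used here.

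The ER is where secreted and membrane proteins fold. When unfolded proteins build up there, the sensors IRE1, PERK and ATF6 are released from the chaperone BiP: IRE1 splices Xbp1 mRNA, PERK slows translation while favouring that of ATF4, and ATF6 is cut to an active transcription factor. Their targets add chaperones, disulfide-exchange enzymes and degradation factors, and prolonged signalling induces the death-promoting factor CHOP. Epithelial cells that carry many transporters in their membranes use the same folding machinery for them.

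Values are intensities of 1 probe set on 1 array, brought to a common trimmed mean because the aldosterone array of replication 3 was deposited on a scale lower by a factor of 28.8. They measure transcript amounts in a population, where fewer cells and less RNA per cell cannot be told apart, and they show neither the translation of Atf4 nor the splicing of Xbp1. Intensities of different probe sets are not compared. Of 11 collecting duct and kidney epithelial markers on the array, 8 passed the brightness filter, among them Krt8, Cdh1, Cdh16 and Pax2. Those that did not were Aqp2, Avpr2 and Hsd11b2, which mark the differentiated principal cell. None of the 3 endothelial markers passed, while 2 of 3 fibroblast markers (Col1a1, Col1a2), 1 of 3 leukocyte markers (Cd68) and 1 of 3 proximal tubule markers (Lrp2) did.

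The promoters of 3 members that hold matches to known ER stress response elements are shown. That of Calr, which was below the brightness filter, held a match as well and is not shown. The RefSeq windows (assembly GRCm38.p6) run from 250 bases before to 50 bases after each gene's start, and all 9 members had 1. Each motif was searched on both strands. The ER stress response element is bound by NF-Y at its first letters and by ATF6 or XBP1 at its last. It matched 3 members (Hspa5, Hsp90b1 and Calr) and 39 of the 32851 windows in the table (0.119%). The second type of this element has the first block inverted and closer to the other. It matched Herpud1 alone among the members and 12 windows in all (0.0365%). Herpud1 also held the core of the amino acid response element, TGATGCAA, to which ATF4 binds with C/EBP factors and which matched 294 windows (0.895%). No member matched the core of the unfolded protein response element, TGACGTGG (0.676% of windows), or the palindromic glucocorticoid response element (0.00913%), and no matches overlapped within a member. In the sequences, read 5′ to 3′ on the gene's strand, capitals mark the fixed letters of each match.
Herpud1, chr8:94386297-94386407, plus strand: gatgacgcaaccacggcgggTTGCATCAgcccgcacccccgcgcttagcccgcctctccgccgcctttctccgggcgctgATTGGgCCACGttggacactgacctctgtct
Hspa5, chr2:34772005-34772063, plus strand: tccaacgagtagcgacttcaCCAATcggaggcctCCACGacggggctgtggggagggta
Hsp90b1, chr10:86705513-86705676, minus strand: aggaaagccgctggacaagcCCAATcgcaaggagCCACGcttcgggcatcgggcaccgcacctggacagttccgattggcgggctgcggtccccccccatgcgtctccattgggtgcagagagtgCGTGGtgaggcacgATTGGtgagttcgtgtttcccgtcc
The Herpud1 elements begin 112 and 52 bases before the gene's start, the first of them on the opposite strand. That of Hspa5 begins 65 bases before the start, and Hsp90b1 has 1 on its own strand at 212 bases and 1 on the opposite strand at 107 bases. A match describes these letters and is not a measured binding site. The elements searched were already known from genes of the ER stress response, and the members were chosen as such genes. Matches among them were therefore likely from the start, no test was made, and no enrichment is read from these counts.

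Herpud1 was the member whose aldosterone arrays stood clear of its vehicle arrays. It encodes a ubiquitin-like protein of the ER membrane that helps hand misfolded proteins to the proteasome. Its intensity was 5389, 4862 and 4678 with aldosterone in replications 1, 2 and 3, against 3965, 4085 and 3383 with vehicle. Every aldosterone array lay above every vehicle array. That held for 1 of the 8 tested members and for 1.91% of all tested probe sets, and the opposite for 0 of 8 and 2.27%. Because the members were chosen with earlier results known, nothing about the set is read from these counts. The means were 4976 ± 369 with aldosterone and 3811 ± 376 with vehicle (SD, n = 3 each). The mean log2 difference was 0.38, or 1.30-fold, with a 95% interval of 0.054 to 0.71 (SE 0.146). Within the replications it was 0.44, 0.25 and 0.46. It did not pass limma's test over all probe sets: the unadjusted p was 0.0272 and the adjusted p 0.9995, and with the replicate block they were 0.00583 and 0.998. Among all tested probe sets, 3.82% had a difference at least as high. Without the rescaled aldosterone array of replication 3 the log2 difference was 0.42. The unadjusted p was no longer under 0.05 without the aldosterone array of replication 1 (0.0989) or 2 (0.0509), or without the vehicle array of replication 3 (0.0985). It was also over 0.05 without both arrays of replication 1 (0.127) or of replication 3 (0.0795).

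Ddit3, which encodes CHOP, had the largest difference of the 8 tested members and also the largest standard error. Its intensity was 1625, 1054 and 1808 with aldosterone in replications 1, 2 and 3, against 1104, 496 and 1422 with vehicle. The aldosterone array was the higher in each replication, but the groups overlapped, because replication 2 was low in both. The means were 1496 ± 394 with aldosterone and 1007 ± 470 with vehicle (SD, n = 3 each). The log2 difference was 0.63, or 1.55-fold, and its 95% interval ran between -0.20 and 1.45 (SE 0.366; limma's unadjusted p = 0.119, adjusted p = 0.9995). Within the replications it was 0.54, 1.01 and 0.34. With the replicate block, which sets the replications' own levels aside, the standard error was 0.202, the interval 0.17 to 1.09, the unadjusted p 0.0125 and the adjusted p 0.998. The size rested in part on the vehicle array of replication 2, without which the log2 difference was 0.21. Without the vehicle array of replication 3 it was 0.92.

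Atf4 and Xbp1, which encode the transcription factors of the PERK and IRE1 branches, had differences near 0. Atf4 read 28015, 30875 and 25036 with aldosterone against 27766, 31738 and 24502 with vehicle. The arrays of a replication lay within 0.040 of each other on the log2 scale, and the replications lay much further apart. Its mean log2 difference was 0.0014 with a 95% interval of -0.30 to 0.30, or -0.15 to 0.15 with the replicate block. Xbp1 read 3670, 4453 and 4291 with aldosterone against 4522, 3819 and 4464 with vehicle, lower in replications 1 and 3 and higher in replication 2. Its log2 difference was -0.045 with an interval of -0.38 to 0.29, and -0.33 to 0.24 with the replicate block.

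**Figure D1:**
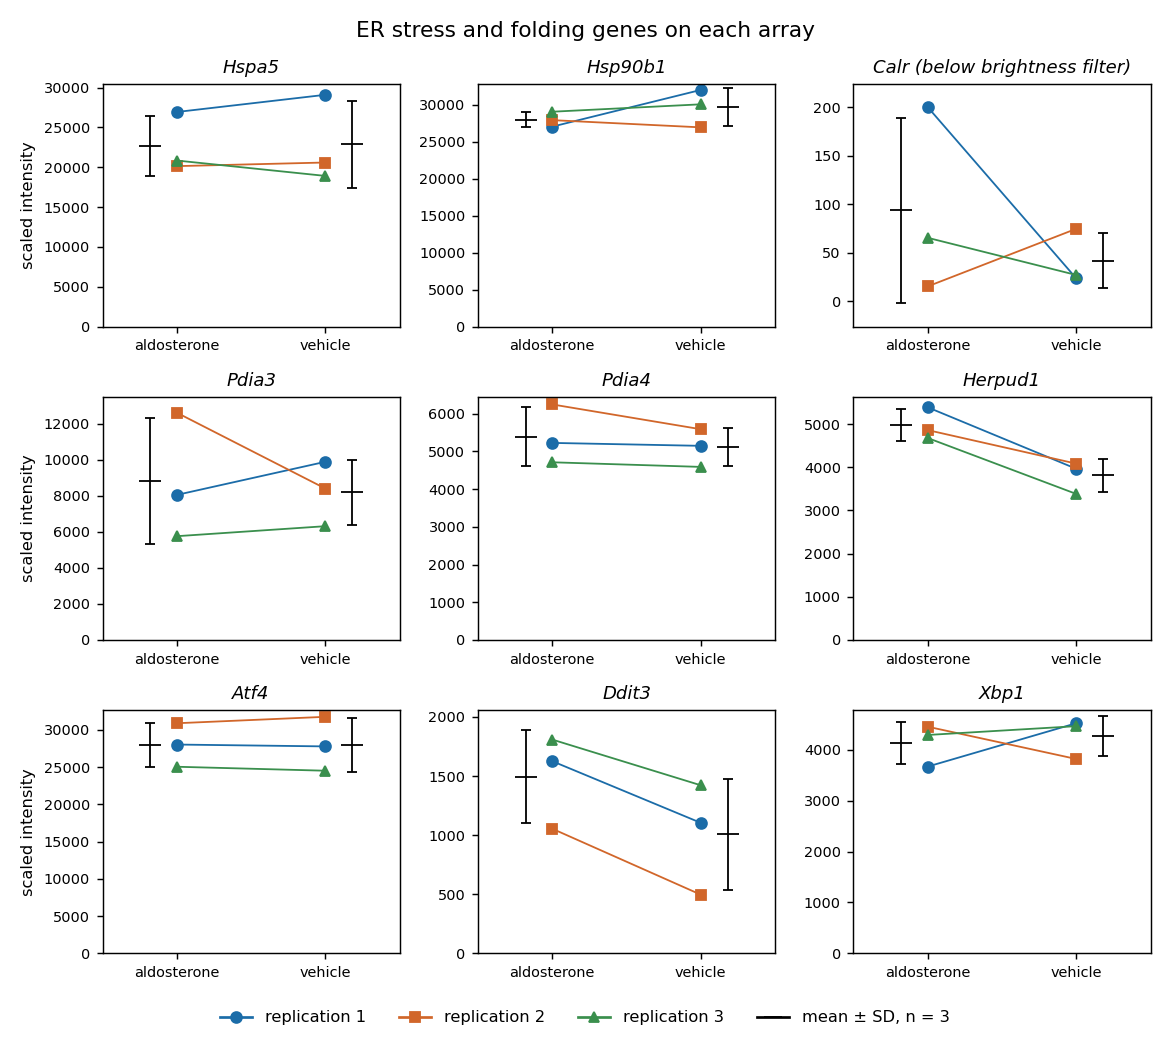
Scaled intensity (vertical axis, linear, array units) of each of the 9 genes on the 6 arrays, aldosterone left and vehicle right, with lines joining the arrays of a replication and black bars for the mean ± SD (n = 3). Herpud1 lies between 4678 and 5389 with aldosterone and between 3383 and 4085 with vehicle. Ddit3 is higher with aldosterone in 3 of 3 replications. For Hspa5, Hsp90b1, Calr, Pdia3, Atf4 and Xbp1 some replications are higher and others lower with aldosterone. The Calr axis extends below 0 to hold its SD bar.

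The ER chaperones showed no common direction. Hspa5 encodes BiP, the Hsp70 chaperone that also holds the stress sensors inactive. It read 26933, 20141 and 20844 with aldosterone against 29090, 20596 and 18914 with vehicle, and was lower in 2 replications and higher in 1. Its log2 difference was -0.0011 with a 95% interval of -0.41 to 0.41, and -0.18 to 0.17 with the replicate block. Hsp90b1, which encodes the ER's Hsp90 (GRP94), read 27070, 27951 and 29090 with aldosterone against 32040, 26974 and 30092 with vehicle. Its log2 difference was -0.080 with an interval of -0.33 to 0.17, and -0.26 to 0.096 with the replicate block. For both genes the groups overlapped. The intervals hold differences in either direction, so the values do not show that the genes stayed constant.

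Of the disulfide isomerases, Pdia3 encodes ERp57, which works with calreticulin and calnexin on glycoproteins. It read 8046, 12606 and 5756 with aldosterone against 9883, 8400 and 6311 with vehicle. Only the aldosterone array of replication 2 was high, and the log2 differences within the replications were -0.29, 0.58 and -0.13. Their mean was 0.052 with an interval of -0.56 to 0.66, and -0.29 to 0.40 with the replicate block. It was -0.24 without that array. Pdia4, which encodes ERp72, read 5226, 6246 and 4712 with aldosterone against 5148, 5588 and 4589 with vehicle. It was higher by 0.021, 0.16 and 0.038 on the log2 scale in the 3 replications, and the groups overlapped. The mean was 0.073 with an interval of -0.28 to 0.43, and -0.15 to 0.29 with the replicate block.

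Calr encodes calreticulin, the calcium-binding lectin chaperone. Its probe set read 200, 15.2 and 65.3 with aldosterone against 23.4, 74.6 and 26.9 with vehicle. It was under the brightness filter, a mean log2 value of 8.87 on the scale of log2(intensity + 53.0), and so it had no test. The arrays of a replication disagreed by 1.73, -0.90 and 0.57 on that scale. These values give no usable level for Calr, and on the rescaled array 1 step of the deposited decimals is worth 2.42 units.

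Of the 8 tested members 5 were higher after aldosterone and 3 were lower, counted by sign, and their median log2 difference was 0.027 against -0.00029 for all 7453 tested probe sets. By limma's test 0 of 8 passed at an adjusted p under 0.05, as did 0% of all tested probe sets. An unadjusted p under 0.05 was reached by 1 of 8 (Herpud1), against 0.966% of all tested probe sets (0.617% when only higher ones are counted). With the replicate block 2 of 8 reached it (Herpud1 and Ddit3), against 3.35% (2.07% higher), and again 0 of 8 passed after adjustment. Being higher in 3 of 3 replications applied to 3 of 8 (Herpud1, Ddit3 and Pdia4), against 10.5%, and being lower in 3 of 3 to 0 of 8, against 11.5%. The members were chosen with earlier results of these arrays known. Nothing particular to the set is therefore read from these counts. For scale, Sgk1 and Per1, known early targets of corticosteroids, were 3.10-fold and 2.39-fold higher on the same arrays. Limma's adjusted p was 0.242 for each, so they did not pass either. With the replicate block it was 0.0509 for Sgk1 and 0.0722 for Per1.

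**Figure D2:**
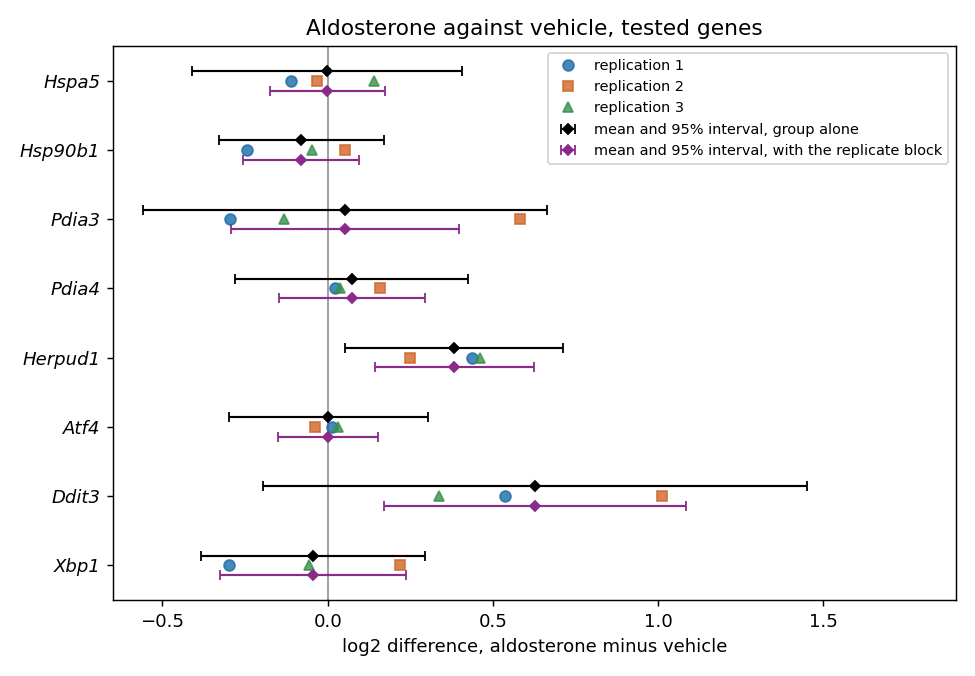
Log2 differences, aldosterone minus vehicle (horizontal axis), for the 8 tested genes, with the difference within each replication and the mean with its 95% interval from the fit on group alone and from the fit with the replicate block. The interval of Herpud1 (0.054 to 0.71) lies above 0 in both fits, and that of Ddit3 only with the replicate block (0.17 to 1.09).

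The wider secretory pathway was read from a list of 97 other genes. The array holds 78 of these, and 73 passed the filter, each taken by its brightest probe set. After aldosterone 33 were higher and 40 lower by sign, against 49.9% and 50.1% of all tested probe sets, with a median log2 difference of -0.0070. None of the 73 had an adjusted p under 0.05 by limma, 0 had an unadjusted p under 0.05, and with the replicate block 2 did, against 3.35% of all tested probe sets. The direction was the same in 3 of 3 replications for 8 higher and 12 lower genes, against 10.5% and 11.5% of all tested probe sets, and nothing particular to the list is read from these counts. The list and its groups were drawn up with earlier results of these arrays known.

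Of 9 tested effectors of the PERK branch, to which Ddit3 belongs, 5 were higher and 4 lower, and the median was 0.066. By their brightest probe sets 4 were higher and 1 lower in every replication, against 10.5% and 11.5% of all tested probe sets. This is a description with no test, of a group drawn up with earlier results known. Cebpb encodes a C/EBP factor that can pair with CHOP. It read 13376, 12028 and 10444 with aldosterone against 11702, 10547 and 7365 with vehicle, a log2 difference of 0.29 (SE 0.185). Ddit4, an inhibitor of mTORC1 signalling, read 5071, 3977 and 4006 with aldosterone against 4810, 3064 and 2555 with vehicle, a log2 difference of 0.36 (SE 0.232). For both the groups overlapped. They were the 2 genes with an unadjusted p under 0.05 once the replicate block was added, at 0.0115 for Cebpb and 0.0223 for Ddit4 (adjusted p = 0.998 for each). Vldlr and Atf3 were also higher in every replication on their brightest probe sets, by 0.26 and 0.19, but not on their other tested probe sets, which gave 0.038 for Vldlr and -0.0015 for Atf3. Ppp1r15a, which restores translation by directing the dephosphorylation of eIF2 alpha, was lower in every replication, by a mean log2 difference of -0.18.

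Among the sensors and regulators, 2 of 5 were higher and 3 lower. Atf6 itself had a log2 difference of -0.30, of which most came from replication 1 (591 with aldosterone against 1070 with vehicle). Atf6b, its relative, read 1628, 1808 and 1550 with aldosterone against 1782, 1964 and 2303 with vehicle, a difference of -0.27, but its dimmer probe set gave 0.25. Of 12 disulfide-exchange genes 4 were higher and 8 lower. The sulfhydryl oxidase gene Qsox1 was furthest down, at 876, 1216 and 1088 with aldosterone against 1100, 1311 and 1731 with vehicle. That was a log2 difference of -0.35, while a dimmer tested probe set of Qsox1 gave 0.025. Chaperones and co-chaperones split into 6 higher and 7 lower of 13 and all lay between -0.13 and 0.13. Degradation genes, the group nearest to Herpud1 in function, split into 5 higher and 3 lower of 8, and 0 of them had a single direction in all 3 replications. Ufd1, a cofactor of the extracting ATPase p97, had -0.29, with 1465 on the aldosterone array of replication 2 against 2587 on its vehicle array. Translocation and glycosylation genes split into 9 higher and 11 lower of 20, with 0.25 for the signal peptidase subunit Spcs1. Calcium and cell death genes split into 2 higher and 4 lower of 6.

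**Figure D3:**
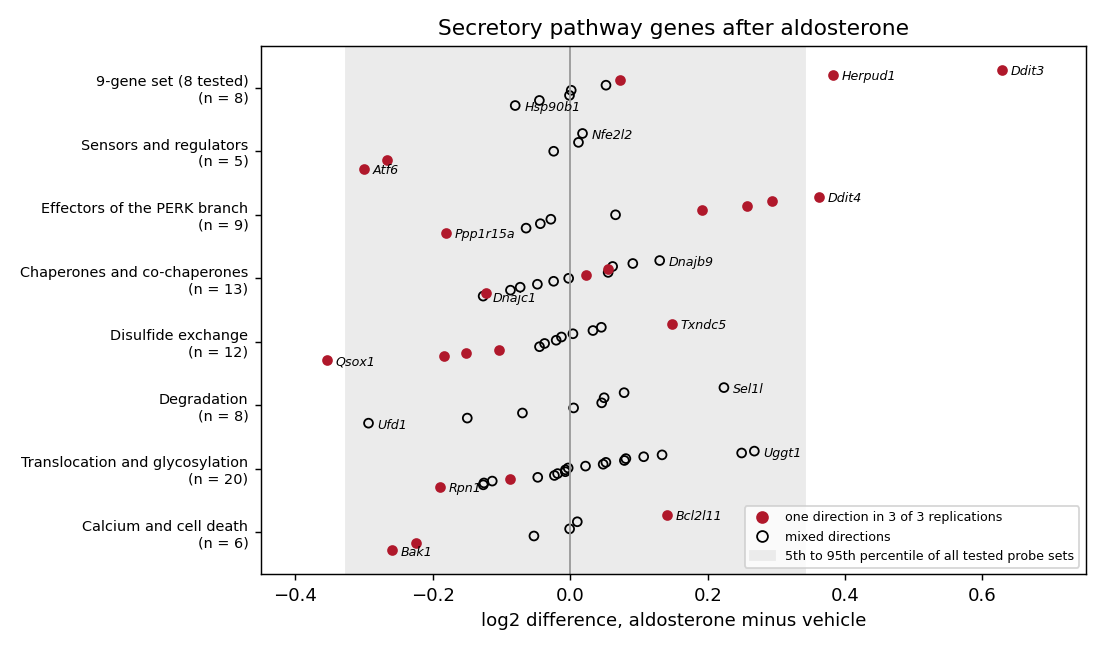
Log2 differences, aldosterone minus vehicle (horizontal axis), for the 8 tested members and for the 73 tested pathway genes in 7 groups. Filled points had the same direction in 3 of 3 replications, and the grey band spans the 5th to 95th percentile of all tested probe sets (-0.33 to 0.34). Herpud1, Ddit3, Ddit4 and Qsox1 lie outside the band.

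The repeats of the experiment were also compared with each other. For 7 of the 8 tested members the range of the replications' means exceeded the difference between the treatments' means. The same held for 6672 of all 7453 tested probe sets. A range over 3 small groups tends to exceed a difference between 2 larger ones without any effect, so nothing is read from these counts. Limma's F test between replications, with treatment in the fit, called 1 of 8 members at an adjusted p under 0.05, against 7.82% of all tested probe sets, and 4 of 8 had an unadjusted p under 0.05, against 27.5%. These counts, too, are of members chosen with earlier results known, and nothing about the set is read from them. The member called was Hspa5. Its arrays of replication 1 read 26933 with aldosterone and 29090 with vehicle, above all arrays of replications 2 and 3, which lay between 18914 and 20844. The highest and lowest replication were 1.41-fold apart (adjusted p = 0.0232). The call was lost without the aldosterone or the vehicle array of replication 1 (adjusted p = 0.103 and 0.200) and without the intensity trend in the variance (0.218).

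Ddit3, Pdia3 and Atf4 came close to the threshold and were ordered differently. Ddit3 was lowest in replication 2 and highest in replication 3 in both treatments, 2.13-fold apart (adjusted p = 0.0527). It passed without the aldosterone array of replication 2 (adjusted p = 0.0163). Without the vehicle array of replication 2, the log2 range was 0.58, against 1.09 over all arrays (adjusted p = 0.153). Without the aldosterone or the vehicle array of replication 1 the adjusted p was 0.136 and 0.143. With vehicle Pdia3 was highest in replication 1. By its means it was highest in replication 2 and lowest in replication 3, 1.70-fold apart (adjusted p = 0.0676). It was past the threshold without the aldosterone array of replication 2 or the vehicle array of replication 2 or 3, without a filter, or with treatment left out of the fit. Atf4 was highest in replication 2 and lowest in replication 3 in both treatments, 1.26-fold apart (adjusted p = 0.0752), and passed only with treatment left out of the fit (0.0415). Pdia4 had the order of Atf4, 1.27-fold apart (adjusted p = 0.190). Herpud1, Hsp90b1 and Xbp1 spanned 1.16-fold, 1.08-fold and 1.07-fold (adjusted p = 0.467, 0.646 and 0.861). Their replications could not be told apart by this test.

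Of the 73 pathway genes 5 were called between replications, 6.85% against 7.82% of all tested probe sets, so the list did not stand out. Atf3, a stress-induced factor of the ATF family, was highest in replication 1, at 9166 with aldosterone and 8535 with vehicle, against 4008 to 4963 on the other arrays (adjusted p = 0.00284), and its other tested probe set was called as well (0.0215). Asns, the asparagine synthetase gene and a target of ATF4, had the same order of replications as Atf4, at 12941, 13130 and 8505 with aldosterone against 11202, 14190 and 7920 with vehicle (adjusted p = 0.0124). Vldlr, a lipoprotein receptor, and Dnajb9, a co-chaperone of BiP, had the order of Ddit3, lowest in replication 2 and highest in replication 3, 2.65-fold and 2.30-fold apart (adjusted p = 0.0214 and 0.0265). P4hb, the gene of protein disulfide isomerase, had means highest in replication 2 and lowest in replication 3, like Pdia3 (1.70-fold, adjusted p = 0.0319). With aldosterone P4hb was highest in replication 1. Its other probe set was below the brightness filter and had no test. That probe set had another order, with mean intensities of 441, 314 and 377 in replications 1, 2 and 3. Dimmer tested probe sets of Asns, Vldlr and Dnajb9 were not called. All 5 calls were lost without the intensity trend and without either array of replication 1, those of Vldlr, Dnajb9 and P4hb also without the aldosterone array of replication 3, and that of Dnajb9 without the vehicle array of replication 3. Cebpb came next, 1.42-fold apart with its highest values in replication 1 (adjusted p = 0.0532).

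**Figure D4:**
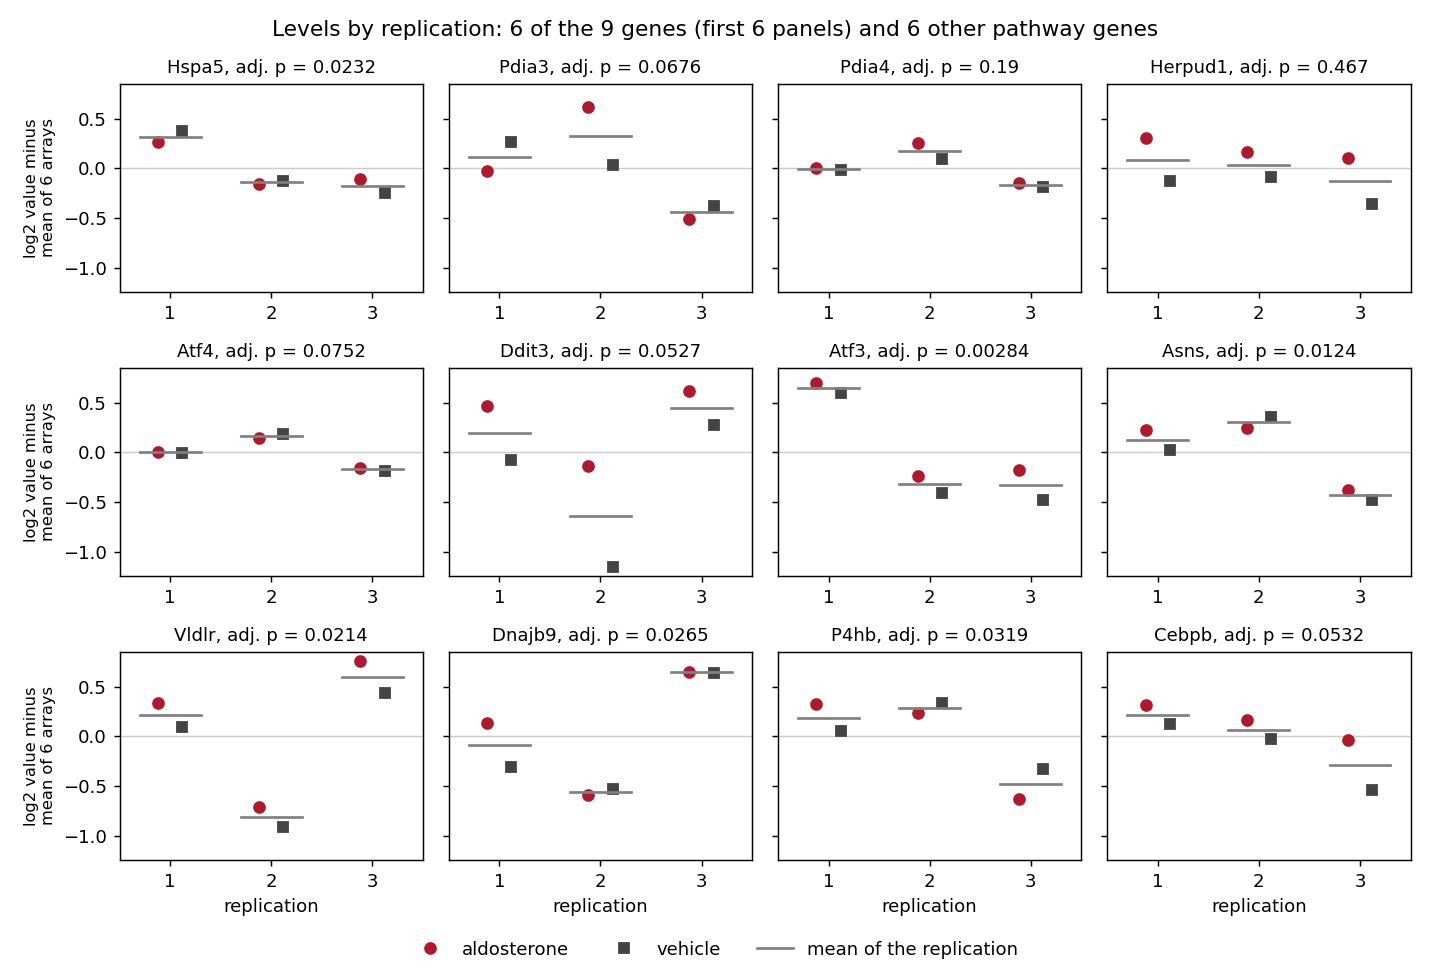
Log2 value of each array minus the gene's mean over the 6 arrays (vertical axis) by replication (horizontal axis), for 6 of the 9 genes and the 6 pathway genes with the smallest p between replications; circles are aldosterone, squares vehicle and grey lines the mean of the replication. Panel titles give the adjusted p of the F test between replications. Hspa5 and Atf3 are high in replication 1, Ddit3, Vldlr and Dnajb9 are low in replication 2, and Pdia3, Asns and P4hb are low in replication 3.

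The genes whose log2 values over the 6 arrays were most like those of Herpud1 were Edn1, the endothelin-1 gene (Pearson's r = 0.976), Slc25a5, an ADP/ATP carrier gene (0.961), and Llgl2, a cell polarity gene (0.945). Their log2 differences after aldosterone were 1.25 for Edn1, 0.29 for Slc25a5 and 0.35 for Llgl2 (limma's adjusted p = 0.9995 for each). Those most like Hspa5 were Tgif1 (0.997), Lamtor2 (0.993) and Fosl1 (0.991), with log2 differences of -0.014, 0.012 and -0.074. The 6 arrays are 3 pairs that share a replication, and these correlations describe which profiles were alike. They were picked as the highest among all tested probe sets with a symbol, over only 6 arrays. Shared regulation was not tested and is not read from them.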

How the data were processed

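RNA of 6 mIMCD3 samples was measured on 6 single-colour arrays, 3 with aldosterone and 3 with vehicle. The deposited values were linear intensities, 1 per probe set and array; how they were scanned and summarised is not given in the sources used here. The 2% trimmed means of the deposited values differed by more than 10%, so each array was scaled to their mean, 2090. Values became log2(intensity + 53.0), the pseudocount being the 10th percentile, and 7453 of 12422 probe sets, those with a mean at or above the 40th percentile, were tested. Fold values were taken from differences on this log2 scale. Symbols came from the platform's annotation (10833 probe sets with 1 symbol, 396 with several, 1193 with none) and were compared by Entrez identifier with RefSeq, which changed 0.

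Limma 3.58.1 in R 4.3.3 fitted group alone with an intensity trend, two-sided, with Benjamini-Hochberg adjustment over all tested probe sets; between replications an F test had treatment as a covariate. The scripts were tested on simulated data. The replication number was a block in an alternative fit. It pairs the arrays, because the labels make each replication 1 experiment, and because deviations from the group means correlated at 0.377, 0.387 and 0.471 within replications 1, 2 and 3. The labels do not say more about the cultures, so the p-values cover only the spread among these samples, which may be technical, and their number limits the precision.

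The 9 genes and the pathway list were chosen with earlier results of these data known. The text names all 9, the 3 higher and 3 lower pathway genes of smallest p after aldosterone, the 6 of smallest p between replications, Sgk1, Per1, and for Herpud1 and Hspa5 the 3 genes of most similar profile; other names were added after their values were seen. Other scalings, pseudocounts, filters, fits and left-out arrays were tried. Promoters came from RefSeq (GRCm38.p6); no protein sequences were used here.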

Additional observations from a re-analysis of the deposited data

How the results depend on the processing

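Under each alternative run Herpud1 and Ddit3 stayed higher with aldosterone, at log2 differences of 0.30 to 0.45 and 0.21 to 0.92, and neither passed in any. At the filter of the 60th percentile Ddit3 was not tested. The other members were near 0 and turned sign on leaving out arrays or replications, with ranges of -0.13 to 0.19 for Hspa5, -0.15 to 0.0012 for Hsp90b1, -0.24 to 0.32 for Pdia3, -0.037 to 0.16 for Pdia4, -0.091 to 0.096 for Atf4 and -0.18 to 0.081 for Xbp1. Quantile normalization turned Atf4 to -0.018. Calls after aldosterone stayed at 0 for members and pathway genes, and at 0 to 1 over all probe sets on leaving out arrays. The replicate block left 0 called and changed no call, while probe sets at an unadjusted p under 0.05 numbered 250 with it, against 72 on group alone; they numbered 262 without a filter, 38 at the 60th percentile and 126 in the ordinary two-sample test. Pathway genes higher by sign numbered 25 to 42.

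The comparison of replications depended on the fit. Of all probe sets 583 were called, but 2 without the intensity trend, and 41 to 1166 on leaving out an array, the low end without the vehicle array of replication 1 (70 without its aldosterone array) and the high end without the aldosterone array of replication 2 (942 without its vehicle array). Members called numbered 1, against 0 without the trend, 2 without a filter, 3 with treatment left out of the fit and 0 to 3 on leaving out an array. Pathway genes called numbered 5, against 0 without the trend and 0 to 16 on leaving out an array. The cause was not tested.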
